A study of Mus musculus with 9 samples.

Results

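A set of 37 genes of the unfolded protein response and of degradation at the endoplasmic reticulum (ER) was followed across doses of MNPs@SiO2(RITC) in BV2 cells. Members were the rows of the expression table with one of 37 listed gene names, and all 37 were found among its 40993 genes. They comprised 3 stress sensors (Atf6, Ern1 and Eif2ak3) with the transcription factor Xbp1, 2 regulatory subunits of the eIF2alpha phosphatase, 13 chaperones and co-chaperones, 5 genes of disulfide formation and 13 genes of ER-associated degradation. The set was drawn up with the change of Herpud1 in these libraries already known, so the values of Herpud1 and Hspa5, its leading genes, are given as a description.

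BV2 cells are microglia of the mouse that were immortalized, and MNPs@SiO2(RITC) are nanoparticles with a cobalt ferrite core and a silica shell that carries the dye rhodamine B isothiocyanate. Libraries of polyadenylated RNA were made in triplicate from 3 groups: a non-treated control, a group given 10 µg/ml (0.01 µg/µl) and a group given 100 µg/ml (0.1 µg/µl), both for 12 h. All 9 libraries came from the same line, and each group consisted of 3 replicates whose origin in separate cultures is not given in the labels. The values are FPKM, fragment numbers scaled to the length of the transcript and to the size of the library, so levels of different genes can be set beside each other.

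Proteins that enter the ER are folded there by chaperones such as Hspa5 (BiP) and by the disulfide isomerases. When unfolded proteins accumulate, the sensors Atf6, Ern1 (IRE1) and Eif2ak3 (PERK) start the unfolded protein response: Atf6 is cut to release a transcription factor, Ern1 splices the Xbp1 mRNA, and Eif2ak3 phosphorylates eIF2alpha and so slows translation. The response raises chaperone genes and the genes of ER-associated degradation, in which misfolded proteins are recognized, moved back to the cytosol through a complex around the ubiquitin ligase Syvn1 (HRD1), and destroyed by the proteasome. Herpud1 encodes a membrane protein of that complex and is itself a well-known target of the response.

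Many of these genes are controlled through short promoter elements, which are shown because they are shared by members of unlike level, many of them chaperones. The windows searched were those of RefSeq on GRCm38.p6, which run from 250 bases before the start site of a gene to 50 after it, and 29 of the 37 members matched. Not matched were Atf6, Ppp1r15b, Hyou1, Manf, Sil1, Hspa13, Derl1 and Erlec1. The motifs, searched on both strands, were the ER stress response element ERSE (CCAAT and CCACG with 9 bases between them), its second form ERSE-II (ATTGG and CCACG with 1 base between them, where ATTGG is CCAAT read on the other strand), the core TGACGT of the cAMP response element, and an ATF4 element (TGATGNAAN). The 250 bases before the start of Herpud1, at chr8:94386179-94386428 on the plus strand, are given first, with the fixed letters of its ERSE-II and of its ATF4 element, which lies on the opposite strand, in capitals.
Herpud1: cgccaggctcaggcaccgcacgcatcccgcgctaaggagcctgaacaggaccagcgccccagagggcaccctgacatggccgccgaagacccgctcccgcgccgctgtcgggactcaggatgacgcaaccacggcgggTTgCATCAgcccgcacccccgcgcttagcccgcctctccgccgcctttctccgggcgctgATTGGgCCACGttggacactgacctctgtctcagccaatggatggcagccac

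The ERSE-II of Herpud1 began 52 bases before the start and its ATF4 element 113 bases before it. In the sites below the fixed letters of the motif are in capitals, each site is written in the direction of the motif, and the distance is from its edge farthest from the start.
Hspa5, chr2:34772025-34772043, plus strand, 65 bases before the start: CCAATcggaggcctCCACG
Hsp90b1, chr10:86705638-86705656, minus strand, 212 bases before the start: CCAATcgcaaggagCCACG
Hsp90b1, chr10:86705533-86705551, plus strand, 107 bases before the start: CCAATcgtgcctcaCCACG
Calr, chr8:84847075-84847093, plus strand, 162 bases before the start: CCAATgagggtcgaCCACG
Canx, chr11:50325800-50325818, minus strand, 145 bases before the start: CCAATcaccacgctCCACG
Dnajc3, chr14:118937827-118937845, plus strand, 105 bases before the start: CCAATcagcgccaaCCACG
Creld2, chr15:88819520-88819538, minus strand, 126 bases before the start: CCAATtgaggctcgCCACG
Pdia6, chr12:17266491-17266509, plus strand, 98 bases before the start: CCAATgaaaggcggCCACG
Syvn1, chr19:6046532-6046550, plus strand, 44 bases before the start: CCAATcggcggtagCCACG
Derl3, chr10:75893242-75893260, minus strand, 156 bases before the start: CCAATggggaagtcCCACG
Dnajb11, chr16:22857852-22857862, plus strand, an ERSE-II within the transcript: ATTGGcCCACG

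ERSE was found in 9 of the 29 matched members (31%), against 37 of the 27025 genes with a window (0.137%). ERSE-II was found in 2 members, Herpud1 and Dnajb11, and in 12 of all genes (0.0444%). The element was defined in promoters of genes such as Hspa5, Hsp90b1 and Calr, so its presence in the members is a description of how they are related and not an independent result. TGACGT was found in 5 members (17.2%), namely Hspa5, Canx, Dnajb11, Ppp1r15a and Ube2j1, against 8.37% of all genes, and its matches on both strands of Ppp1r15a overlapped. The ATF4 element was found in Herpud1 alone among the matched members (3.45%), near the share of all genes (4.5%). The element of Hspa5 lies before the RefSeq start but inside the gene as the deposited table draws it.

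**Figure D1:**
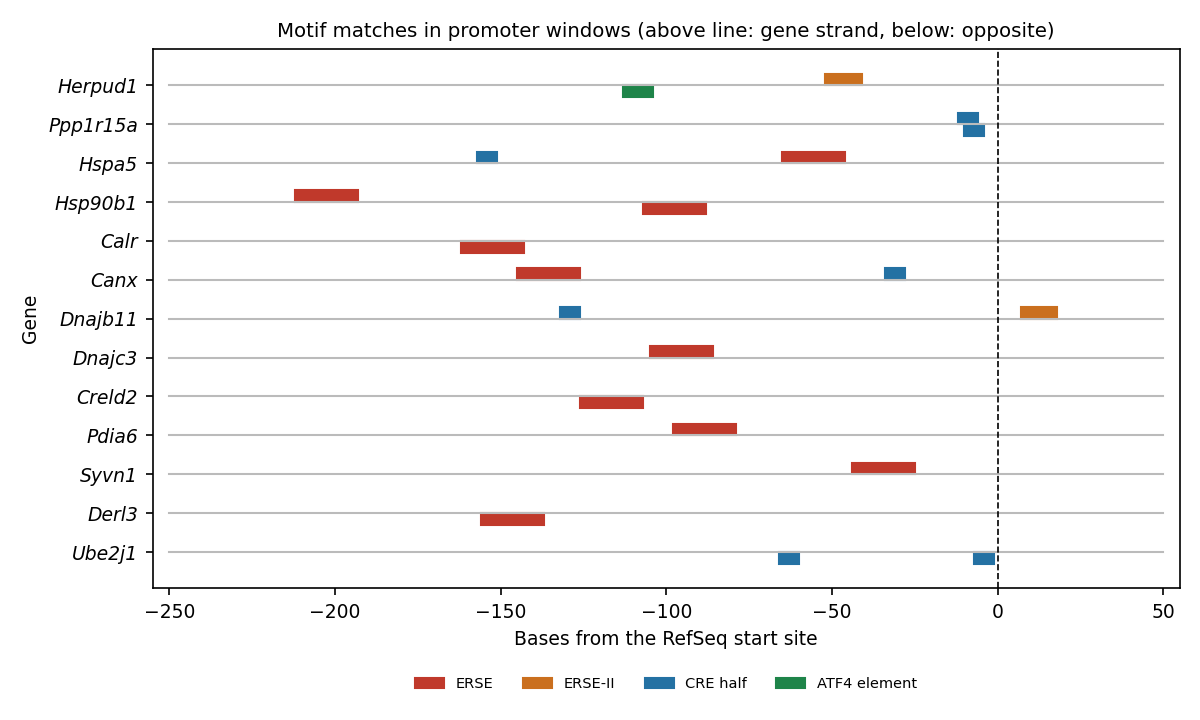
Position of each motif match in the promoter windows of the 13 members with at least 1 match, in bases from the RefSeq start site (dashed line, x axis), with 1 line per gene; boxes above the line are on the strand of the gene and boxes below it on the opposite strand. The ERSE matches lie between 212 and 44 bases before the start, and Herpud1 carries an ERSE-II at 52 bases and an ATF4 element at 113 bases before it.

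The label of the cells was checked against markers. All 7 genes of microglia and macrophages were detected in every library, with means over the 9 libraries from 5.13 FPKM for Aif1 to 413 FPKM for Cd68. Of these 7, Aif1, Csf1r and Ptprc were lower in all 3 libraries at 100 µg/ml than in all of control, without overlap, and Aif1 and Fcer1g were so at 10 µg/ml. Among all genes that averaged 1 FPKM or more, 11.4% were lower without overlap at 100 µg/ml and 4.61% at 10 µg/ml. Aif1 had means of 6.54, 4.97 and 3.87 FPKM in control, at 10 and at 100 µg/ml, Csf1r 142 and 123 FPKM in control and at 100 µg/ml, and Ptprc 73.9 and 66.7 FPKM. The summed level of the 7 ran from 1116 to 1316 FPKM in control, 1105 to 1215 FPKM at 10 µg/ml and 1043 to 1237 FPKM at 100 µg/ml, and the part of these markers in the differences of the members was not tested. Of 3 genes typical of microglia in tissue, P2ry12 and Sall1 were near 0 and Tmem119 had a mean of 2.15 FPKM. Of 11 genes of other cells, 7 were listed at 0 in all libraries, and the highest single value was 0.798 FPKM for Gfap. From the steps between low FPKM values, the depth was estimated at 12.0 to 15.0 M (mega) fragments per library.

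One library stood apart. Replicate 1 at 100 µg/ml was the library farthest from the median of all 9 libraries for 18 of the 36 members tested (50%) and for 38.8% of all genes tested. Its difference from replicates 2 and 3 went with transcript length. It was above both for 18 members (median longest transcript 2570 nt), below both for 13 members (median 4925 nt) and between them for 5, which were Herpud1, Sil1, Edem1, Syvn1 and Derl2. Across the 36 members, which share the libraries, Spearman's rho between this difference and the longest transcript was -0.76, and across 11076 genes it was -0.60. With the GC content of the transcript, rho was 0.38 across the members and 0.15 across the 11076 genes. Short genes such as Sdf2l1, Xbp1 and Manf therefore read higher in this library, and long ones such as Atf6, Ern1 and Sel1l lower. The source of this pattern was not tested. Without this library the log2 difference at 100 µg/ml from control changed sign for 9 of the 36 members, which were Xbp1, Ppp1r15b, Hyou1, Creld2, Pdia3, P4hb, Herpud2, Sel1l and Erlec1, and none of the 9 had an adjusted p under 0.05 in limma in either fit. Replicate 1 was also the deepest of the 9 libraries.

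**Figure D2:**
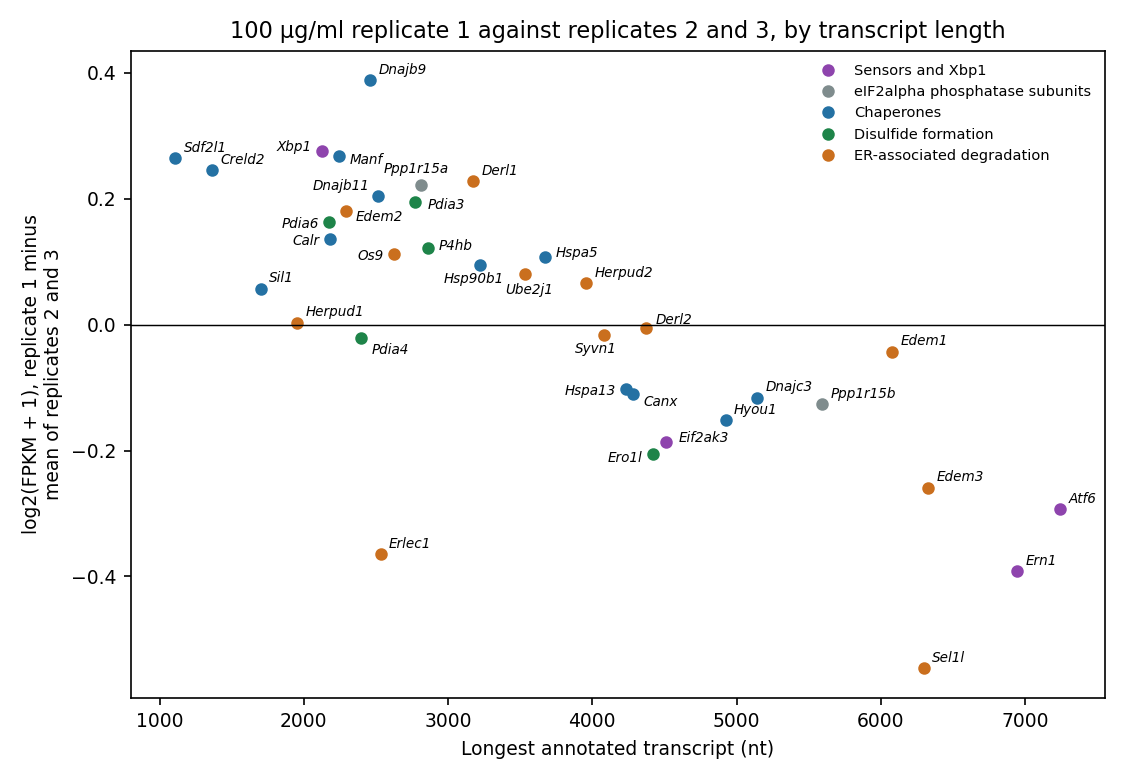
Difference of replicate 1 at 100 µg/ml from the mean of replicates 2 and 3, in log2(FPKM + 1) (y axis), against the longest annotated transcript in nt (x axis), for the 36 members tested, coloured by role. Points run from Dnajb9 at 0.39 to Sel1l at -0.55, and Herpud1 lies at 0.

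In control cells the members spanned a wide range of levels. Hspa5, the most abundant, had 854 ± 4.48 FPKM (SD, n = 3), followed by Calr at 650 ± 19.7 FPKM (SD, n = 3) and Hsp90b1 at 372 ± 2.72 FPKM (SD, n = 3). Canx, Pdia3, Pdia6 and P4hb had group means between 237 and 315 FPKM, so the abundant members were chaperones and disulfide isomerases. Manf, at 106 FPKM, was the only other member above 100 FPKM. The degradation genes lay lower, from 6.59 FPKM for Erlec1 to 62.3 FPKM for Edem1, and Herpud1 was among the higher of them. The sensors had 37.8 ± 0.601 FPKM for Atf6, 13.5 ± 0.464 FPKM for Ern1 and 6.97 ± 0.320 FPKM for Eif2ak3 (SD, n = 3 each), and the 3 ranges did not overlap. Derl3, a degradation gene of secretory cells, was listed at 0 in 5 libraries and at no more than 0.113 FPKM in the others, about 2 fragments, so it was not tested and 36 members remained.

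Differences between doses were tested with limma on log2(FPKM + 1) over the 11161 genes that averaged 1 FPKM or more, with Benjamini-Hochberg adjustment over all of them. Between 100 µg/ml MNPs@SiO2(RITC)-treated and control cells, 1 of the 36 members tested had an adjusted p under 0.05, which was Herpud1, lower in treated cells. Its change was known when the set was drawn up, so this call is a description. The background was 236 of 11161 genes in either direction (2.11%) and 1.41% lower. Since the 1 member past the threshold was known beforehand, no comparison of rates was drawn from this count. Between 10 µg/ml-treated and control cells, 0 members passed in limma, as did 0 of all genes (0%). At an unadjusted p under 0.05 there were 2 members in that comparison (Ppp1r15a higher and Derl2 lower) beside 3.28% of all genes, of which 1.74% were higher and 1.54% lower. Between 100 and 10 µg/ml, the only member past the threshold was again Herpud1, beside 95 genes in all (0.851%, and 0.636% lower). At an unadjusted p under 0.05 there were 3 members between the doses, Dnajc3, Ero1l and Herpud1, all lower, beside 14.3% of all genes (7.8% lower). When an unadjusted p under 0.05 was combined with a change of the mean FPKM by 1.5-fold, which are the cut-offs of the study but applied here to the p of limma and not to that of Cuffdiff, Herpud1 was the only member to pass at 100 µg/ml against control (2.4% of all genes) and against 10 µg/ml (1.63%), and 0 members passed at 10 µg/ml against control (0.672%). Without replicate 1 at 100 µg/ml, 3 members passed against control (Herpud1, Manf and Pdia6) among 539 of all genes, and after a loess correction of each library by GC content and length of the transcript 6 passed (also Atf6, Dnajc3 and Hspa13), among 657 of all genes. The comparisons share libraries and are not independent of each other.

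Herpud1 (ENSMUSG00000031770, chr8:94386438-94395377), whose change was known when the set was drawn up, was the member past the threshold in both comparisons with 100 µg/ml. It had 44.4, 46.0 and 48.5 FPKM in control, 51.7, 46.6 and 47.4 FPKM at 10 µg/ml, and 26.4, 26.6 and 26.1 FPKM at 100 µg/ml. The libraries at 100 µg/ml lay far below all others and within 1 FPKM of each other, while those at 10 µg/ml overlapped with control. The group means were 46.3 ± 2.09, 48.6 ± 2.76 and 26.4 ± 0.233 FPKM (SD, n = 3 each), so the level at 100 µg/ml was 0.570 of control. On the log2 scale the difference was -0.79 (standard error 0.06) from control and -0.86 from 10 µg/ml, and that between 10 µg/ml and control was 0.07 with a 95% interval from -0.06 to 0.20. Replicate 1 at 100 µg/ml lay between replicates 2 and 3 here, and the difference from control without it was also -0.79. About 623 to 1360 fragments per library stood behind these values, and no annotated exon of another gene overlaps those of Herpud1.

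**Figure D3:**
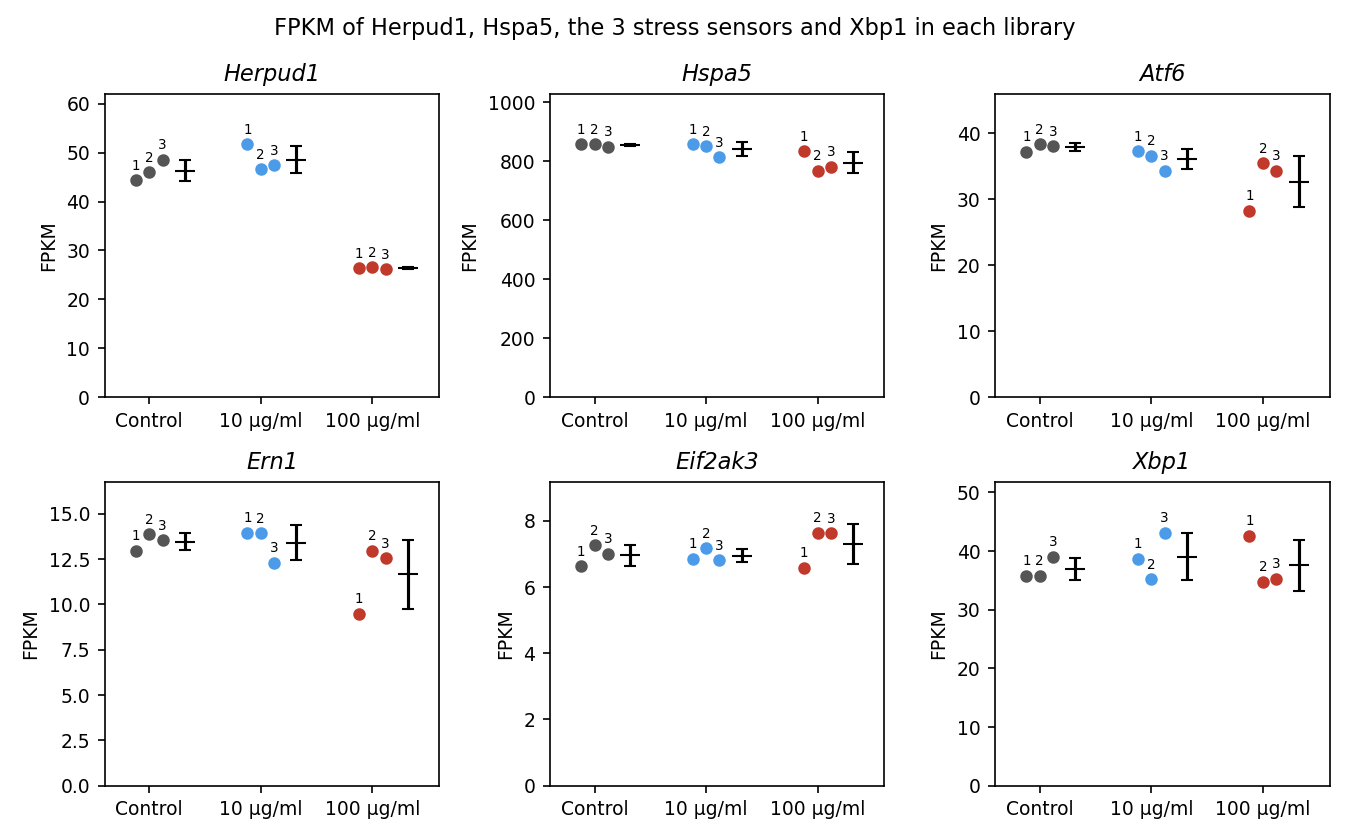
FPKM (y axis, from 0) of Herpud1, Hspa5, the 3 stress sensors and Xbp1 in each library (points, numbered by replicate) by group (x axis), with the group mean and SD (n = 3) as bars. Herpud1 at 100 µg/ml sits at 26.1 to 26.6 FPKM against 44.4 to 51.7 FPKM in the other 6 libraries, while for Eif2ak3 and Xbp1 the groups overlap.

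None of the stress sensors passed the threshold. Atf6 had 37.2, 38.3 and 38.0 FPKM in control, 37.2, 36.6 and 34.3 FPKM at 10 µg/ml, and 28.3, 35.4 and 34.3 FPKM at 100 µg/ml. All 3 libraries at 100 µg/ml were under the control libraries, and the lowest was replicate 1. The log2 difference of Atf6 from control was -0.21 (95% interval -0.40 to -0.03, adjusted p = 0.203 in limma), and -0.11 without replicate 1. Ern1 had 13.0, 13.9 and 13.6 FPKM in control, 13.97, 13.9 and 12.3 FPKM at 10 µg/ml, and 9.49, 13.0 and 12.6 FPKM at 100 µg/ml. Replicate 1 again stood lowest, and the other libraries at 100 µg/ml lay just below the control range. Its log2 difference was -0.20 (95% interval -0.45 to 0.04, adjusted p = 0.352 in limma), and -0.07 without replicate 1. Both genes have long transcripts, 7246 nt for Atf6 and 6946 nt for Ern1.

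Eif2ak3 had 6.63, 7.26 and 7.01 FPKM in control, 6.85, 7.17 and 6.82 FPKM at 10 µg/ml, and 6.59, 7.65 and 7.63 FPKM at 100 µg/ml. The groups overlapped, and the log2 difference at 100 µg/ml was 0.06 (95% interval -0.11 to 0.22, adjusted p = 0.730 in limma). The overlap came from replicate 1, since replicates 2 and 3 were both above the highest control library, and without replicate 1 the log2 difference was 0.12 (adjusted p = 0.296 in limma). Xbp1, the transcription factor made after splicing by Ern1, had 35.8, 35.8 and 39.1 FPKM in control, 38.7, 35.2 and 43.1 FPKM at 10 µg/ml, and 42.6, 34.8 and 35.3 FPKM at 100 µg/ml. One library in each treated group was high, and the groups overlapped. Its log2 difference was 0.02 (95% interval -0.20 to 0.24, adjusted p = 0.925 in limma) and turned to -0.07 without replicate 1. A gene-level FPKM does not separate spliced from unspliced Xbp1, so the activity of Ern1 was not measured here. At 10 µg/ml the log2 differences of Atf6, Ern1, Eif2ak3 and Xbp1 from control lay between -0.07 and 0.08, and none passed the threshold.

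The subunits that return eIF2alpha to its unphosphorylated state are Ppp1r15a (GADD34), which is made on stress, and the constitutive Ppp1r15b. Ppp1r15a had 8.22, 7.28 and 7.71 FPKM in control, 9.45, 8.30 and 9.39 FPKM at 10 µg/ml, and 9.68, 8.36 and 7.96 FPKM at 100 µg/ml. All libraries at 10 µg/ml were above all control libraries, by 8.30 against 8.22 FPKM at the closest, and those at 100 µg/ml overlapped with control. The log2 differences were 0.20 (95% interval 0.00 to 0.40) at 10 µg/ml and 0.14 (95% interval -0.05 to 0.34) at 100 µg/ml, with an adjusted p in limma of 1 and 0.412. Exons of Ppp1r15a overlap those of Tulp2 on the opposite strand. Ppp1r15b stayed between 54.7 and 62.3 FPKM in all 9 libraries, with overlapping groups.

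Among the 13 chaperones and co-chaperones, 12 had a log2 difference below 0 at 100 µg/ml, with a median of -0.09 and a range from -0.31 for Manf to 0.00 for Creld2 and Hyou1. Over all genes tested the median was -0.00 and 50.4% were below 0. None of the 13 passed the adjusted threshold. Hspa5, the main chaperone of the ER lumen and the usual gauge of the response, had 856, 857 and 849 FPKM in control, 857, 851 and 814 FPKM at 10 µg/ml, and 834, 767 and 781 FPKM at 100 µg/ml. All 3 libraries at 100 µg/ml were below the control libraries, and 2 were below every other library. The group means were 854 ± 4.48, 841 ± 23.5 and 794 ± 35.4 FPKM (SD, n = 3 each), a difference of -7.05% at 100 µg/ml. On the log2 scale it was -0.11, with a 95% interval from -0.22 to 0.01.

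Manf, a secreted protein of the ER stress response, had 112, 108 and 96.4 FPKM in control, 95.7, 101 and 90.3 FPKM at 10 µg/ml, and 96.1, 78.1 and 81.3 FPKM at 100 µg/ml. The libraries at 100 µg/ml were below those of control, though replicate 1 reached 96.1 FPKM against a lowest control library of 96.4 FPKM. The log2 difference was -0.31 (95% interval -0.52 to -0.10, adjusted p = 0.114 in limma), and -0.40 with an adjusted p of 0.0306 in limma without replicate 1. The gene model of Manf overlaps exons of Rbm15b on the same strand and of Dcaf1 on the opposite one, so its value is uncertain. Dnajc3 (p58IPK), a co-chaperone of Hspa5, had 17.3, 16.9 and 17.0 FPKM in control, 16.9, 17.1 and 16.5 FPKM at 10 µg/ml, and 13.7, 14.7 and 15.1 FPKM at 100 µg/ml. The libraries at 100 µg/ml were below the other 6, with a log2 difference of -0.22 from control (95% interval -0.34 to -0.10, adjusted p = 0.0695 in limma). Hspa13, an Hsp70-like ATPase of microsomes, had 28.5, 29.0 and 29.5 FPKM in control, 27.1, 26.2 and 27.8 FPKM at 10 µg/ml, and 24.0, 25.4 and 26.2 FPKM at 100 µg/ml. Its groups overlapped in none of the 3 comparisons, by 26.22 FPKM at 100 µg/ml against 26.24 FPKM at 10 µg/ml at the closest. These comparisons share libraries, and the share of all genes with this pattern was not computed. The log2 difference of Hspa13 at 100 µg/ml was -0.19 (95% interval -0.31 to -0.08, adjusted p = 0.0914 in limma).

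The glycoprotein chaperones of the calnexin cycle differed in how clearly the groups parted. Canx, the membrane-bound one, had 306, 317 and 322 FPKM in control and 274, 303 and 289 FPKM at 100 µg/ml with no overlap, a log2 difference of -0.13 (95% interval -0.25 to -0.01). Calr, the soluble one, had 667, 655 and 628 FPKM in control and 652, 581 and 605 FPKM at 100 µg/ml with overlap, a log2 difference of -0.09 (95% interval -0.22 to 0.05). Hsp90b1 (GRP94) had 371, 375 and 369 FPKM in control and 366, 342 and 344 FPKM at 100 µg/ml, with no overlap and a log2 difference of -0.08. Exons of Hsp90b1 overlap those of Gm15344 on the same strand. For Dnajb9, Sil1, Sdf2l1, Dnajb11, Hyou1 and Creld2 the groups overlapped, and the log2 differences at 100 µg/ml ran from -0.18 for Dnajb9 to 0.00. Without replicate 1 the value of Dnajb9 was -0.31 (adjusted p = 0.0958 in limma). At 10 µg/ml the 13 chaperones lay between -0.14 (Manf) and 0.05 (Hyou1) with a median of -0.03.

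Of the 5 genes of disulfide formation, Pdia6 stood lowest. This isomerase had 277, 268 and 253 FPKM in control, 246, 252 and 259 FPKM at 10 µg/ml, and 248, 218 and 224 FPKM at 100 µg/ml. The libraries at 100 µg/ml were below those of control and replicate 1 was nearest to them, with a log2 difference of -0.21 (95% interval -0.35 to -0.07, adjusted p = 0.113 in limma). Without replicate 1 it was -0.26 with an adjusted p of 0.0286 in limma. Exons of Pdia6 overlap those of Atp6v1c2, and exons of Pdia3 those of Catsper2, both on the opposite strand. Ero1l, the oxidase that recharges the isomerases, had 40.2, 41.3 and 41.7 FPKM in control, 47.7, 40.1 and 41.5 FPKM at 10 µg/ml, and 34.1, 39.7 and 39.1 FPKM at 100 µg/ml, where all libraries were below the other 6. Its log2 difference from control was -0.13 (95% interval -0.31 to 0.06), and -0.06 without replicate 1. Pdia3, Pdia4 and P4hb had log2 differences between -0.04 and 0.03 and overlapping groups.

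Apart from Herpud1, the degradation genes showed no member past the threshold. The other 11 tested had log2 differences at 100 µg/ml between -0.11 (Syvn1) and 0.05 (Edem3), with a median of -0.04, and for each of them the groups overlapped. Herpud2, the paralog of Herpud1, had 8.21, 8.11 and 8.12 FPKM in control, 8.86, 8.37 and 9.34 FPKM at 10 µg/ml, and 8.55, 8.33 and 7.92 FPKM at 100 µg/ml. Its libraries at 10 µg/ml were above control, those at 100 µg/ml overlapped with it, and the log2 difference at 100 µg/ml was 0.02 with a 95% interval from -0.12 to 0.16.

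The partners of Herpud1 in the ligase complex are the ubiquitin ligase Syvn1, its adaptor Sel1l and the channel-like Derl1 and Derl2. Syvn1 had 22.3, 28.0 and 28.4 FPKM in control, 27.9, 28.1 and 26.3 FPKM at 10 µg/ml, and 23.9, 23.9 and 24.5 FPKM at 100 µg/ml. The libraries at 100 µg/ml were below all of those at 10 µg/ml, but control replicate 1 was lower still, and the log2 difference from 10 µg/ml was -0.18 (95% interval -0.38 to 0.02, adjusted p = 0.399 in limma). Exons of Syvn1 overlap those of Mrpl49, and exons of Derl2 those of Mis12, both on the opposite strand. Sel1l had 38.3, 38.9 and 36.02 FPKM in control and 27.1, 42.1 and 38.3 FPKM at 100 µg/ml, so that replicate 1 alone was outside the control range on the low side, and its log2 difference of -0.10 has a 95% interval from -0.40 to 0.21. Without replicate 1 that difference turned to 0.09 (adjusted p = 0.377 in limma). Derl1 lay between 44.8 and 53.4 FPKM in all libraries. Derl2 had 30.9, 32.9 and 32.3 FPKM in control, 27.0, 27.3 and 31.6 FPKM at 10 µg/ml, and 31.0, 29.7 and 32.5 FPKM at 100 µg/ml, with low values in 2 libraries at 10 µg/ml only and a log2 difference there of -0.16 (95% interval -0.32 to -0.00, adjusted p = 1 in limma).

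The lectins and mannosidases that mark misfolded glycoproteins showed the same overlap. Edem1, Edem2 and Edem3 had means of 62.3, 27.8 and 17.6 FPKM in control and 60.4, 27.0 and 18.3 FPKM at 100 µg/ml. The lectins Os9 and Erlec1 had 18.3 and 6.59 FPKM in control and 18.1 and 6.21 FPKM at 100 µg/ml. Ube2j1, the ubiquitin-conjugating enzyme of the ER membrane, had 25.04 and 25.7 FPKM. None of these differences exceeded 0.08 on the log2 scale in size.

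**Figure D4:**
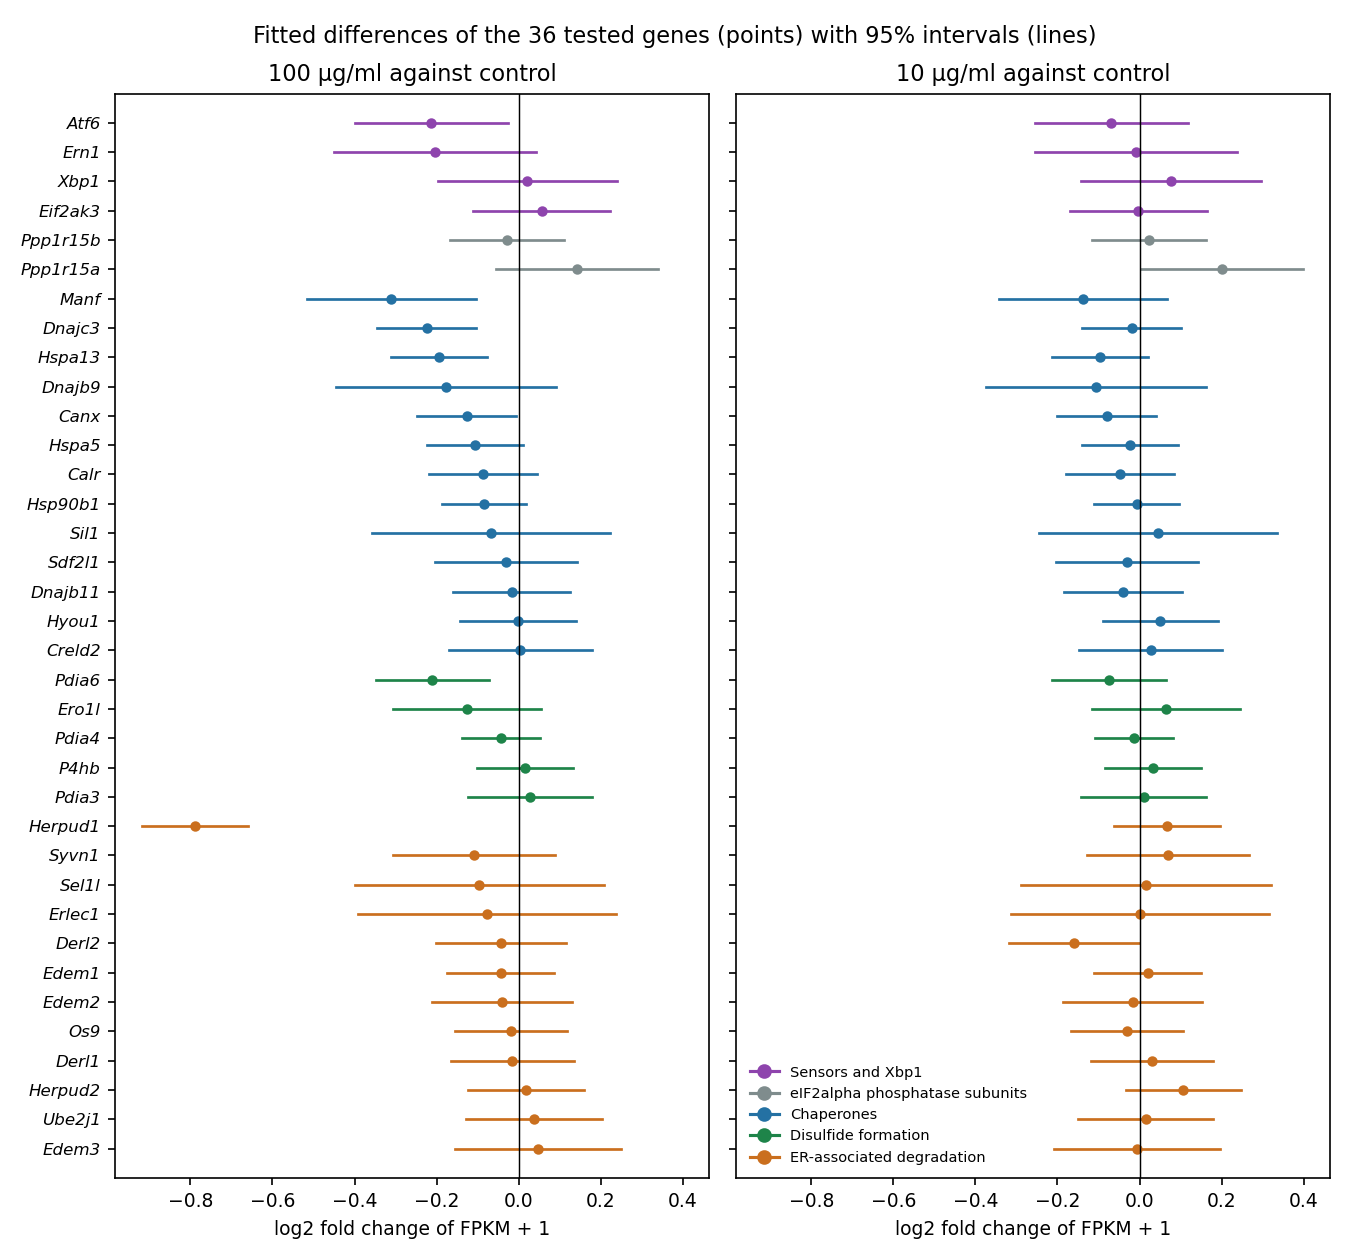
Fitted log2 fold change of FPKM + 1 (x axis) of each of the 36 members tested (y axis) at 100 µg/ml (left) and 10 µg/ml (right) against control, with 95% intervals as lines and colours by role. At 100 µg/ml Herpud1 at -0.79 lies apart from the other members, which run from -0.31 to 0.14, and at 10 µg/ml all members lie between -0.16 and 0.20.

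Counted over the whole set, the direction at 100 µg/ml was mostly downward in size but seldom past a threshold. A log2 difference below 0 was found for 27 of 36 members (75.0%) at 100 µg/ml against control, beside 50.4% of all genes tested. The median over the members was -0.04, or -0.08 without replicate 1, and no setting tried put a median above 0. In 11 members (30.6%) the 3 libraries at 100 µg/ml were all below the 3 control libraries, and in 0 members all above, beside 11.4% and 12.5% of all genes (23.8% in either direction). These 11 were Atf6, Canx, Dnajc3, Ern1, Ero1l, Herpud1, Hsp90b1, Hspa13, Hspa5, Manf and Pdia6, of which 6 were chaperones or co-chaperones and 1 a degradation gene. At an unadjusted p under 0.05 there were 7 members (19.4%), all lower, beside 9.69% of all genes lower and 19.4% in either direction. Against 10 µg/ml, 29 members were below 0 (49.8% of all genes) and 5 did not overlap, all lower, namely Dnajc3, Ero1l, Herpud1, Hspa13 and Syvn1 (19.4% of all genes in either direction, 9.99% lower). At 10 µg/ml against control, 19 members were below 0 (49.8% of all genes), Derl1, Herpud2 and Ppp1r15a were above control without overlap (6.14% of all genes), and Hspa13 was below (4.61%; 10.7% of all genes in either direction). Since the list was chosen with results of these libraries in view, these shares describe the members and are not a test of the set. In RNA from whole cultures, a lower level in every cell and fewer cells that carry the transcript cannot be told apart.

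**Figure D5:**
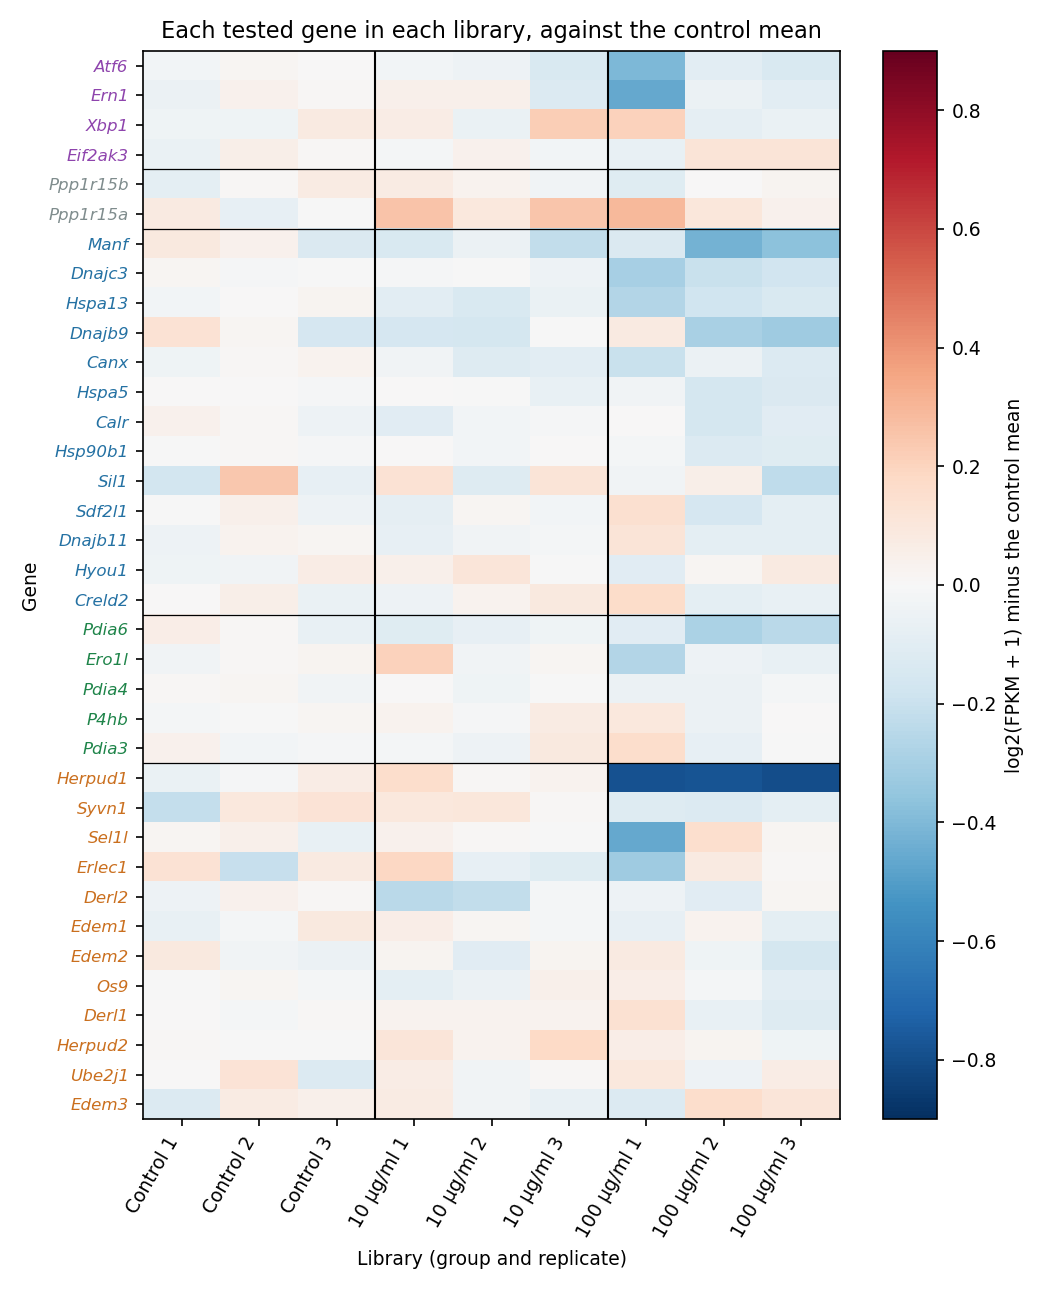
Colour gives log2(FPKM + 1) minus the control mean for each of the 36 members tested (rows, grouped by role) in each of the 9 libraries (columns). Herpud1 at 100 µg/ml is the single dark block, with -0.79 as its fitted difference, while replicate 1 at 100 µg/ml differs from replicates 2 and 3 in many other rows.

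The promoter elements were set beside the differences at 100 µg/ml, where 50.4% of all genes tested were below 0. The 10 tested members with an ERSE or ERSE-II had a median log2 difference of -0.11, with 9 below 0, and leaving out Herpud1 the remaining 9 members had the same median, with 8 below 0. The 18 tested members with a window but neither element had a median of -0.02, with 10 below 0. Members without a window are not in this split, and their log2 differences ran from -0.31 for Manf to 0.00 for Hyou1. Most tested members with an element are chaperones, a role with a median of -0.09, so element and role were not separated. Outside the set, the 10 tested genes with either element had a median of -0.02, with 6 below 0. Herpud1 and Dnajb11 both carry an ERSE-II, and their log2 differences were -0.79 and -0.02. The element of Dnajb11 lies within the transcript and that of Herpud1 before the start. A match of letters does not show that a factor binds there, and the part of the elements in the differences was not tested.

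ER genes outside the set were taken from a list of 71 genes chosen for function, of which 68 were tested. In limma 3 passed the adjusted threshold at 100 µg/ml against control (4.41%), all lower, beside 2.11% of all genes, and 0 passed in each of the other comparisons, beside 0% of all genes at 10 µg/ml against control and 0.851% between the doses. At an unadjusted p under 0.05 there were 8 of the 68 at 100 µg/ml against control (11.8%, beside 19.4% of all genes), 8 between the doses (11.8%, beside 14.3%) and 0 at 10 µg/ml against control (beside 3.28%). Ufd1l, a cofactor of the p97 segregase that pulls proteins out of the ER membrane, had 27.7, 28.8 and 32.01 FPKM in control, 26.7, 26.0 and 28.1 FPKM at 10 µg/ml, and 22.4, 22.0 and 22.6 FPKM at 100 µg/ml, a log2 difference of -0.39 from control (standard error 0.06, adjusted p = 0.0196 in limma). Serp1, a protein of the translocon that is made on ER stress, had 238, 236 and 217 FPKM in control, 219, 220 and 227 FPKM at 10 µg/ml, and 189, 181 and 174 FPKM at 100 µg/ml, a log2 difference of -0.34 (adjusted p = 0.0195 in limma). Ssr3, a subunit of the translocon-associated complex, had 131, 130 and 135 FPKM in control, 129, 122 and 128 FPKM at 10 µg/ml, and 110, 110 and 113 FPKM at 100 µg/ml, a log2 difference of -0.25 (adjusted p = 0.0279 in limma). In all 3 genes the libraries at 100 µg/ml were below the other 6. With quantile normalization Ssr3 no longer passed and Tmbim6 did. Without control replicate 1 or 2, or replicate 2 or 3 at 100 µg/ml, 0 of the 68 passed, and the calls over all genes fell from 236 to between 31 and 154. Over the fits that left out 1 library each, the log2 difference ran from -0.43 to -0.33 for Ufd1l, from -0.38 to -0.31 for Serp1 and from -0.27 to -0.24 for Ssr3.

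By role, 15 of the 16 genes of translocation and signal peptide removal were below 0 at 100 µg/ml (50.4% of all genes). Their median log2 difference was -0.09. At 10 µg/ml 15 of them were below 0 as well (49.8% of all genes), with a median of -0.06. Both counts rest on the same control libraries and are not independent. Glycosylation genes had medians of 0.04 at 100 µg/ml and 0.01 at 10 µg/ml, the other folding factors 0.06 and 0.01, and the other degradation factors 0.03 and -0.01. Genes that relay the signal of the sensors had a median of -0.09 at 100 µg/ml. Of the 10 tested, 8 were below 0, and Atf3 and Creb3 were each at 0.08 with overlapping groups. Among the 10, Atf4, the transcription factor translated when Eif2ak3 is active, had 201, 196 and 192 FPKM in control. At 100 µg/ml Atf4 had 216, 167 and 170 FPKM, with replicate 1 on the other side of control from replicates 2 and 3. Its log2 difference was -0.10 (95% interval -0.31 to 0.11). Without replicate 1 it was -0.22 with an adjusted p of 0.0324 in limma. Ddit3 (CHOP), a target of Atf4, had 13.6, 13.7 and 11.8 FPKM in control and 12.2, 10.7 and 7.53 FPKM at 100 µg/ml, with overlapping groups. These last 2 genes were chosen for their place in the pathway after their values were seen.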

How the data were processed

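The 9 libraries were grouped by the treatment in their labels. Reads were aligned by the authors with TopHat, and the deposited FPKM values came from Cufflinks 2.1.1 with Ensembl gene models (GRCm38) and its corrections for biased fragments and multiply mapping reads. No counts were used here, and whether strand was used in counting is not given in the sources used here. Depth is therefore approximate: of 3922 low values, 78.2% came out within 0.25 of a whole number of fragments (chance 50%). No pair of libraries held identical values.

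Values were put on a log2(FPKM + 1) scale. Genes averaging at least 1 FPKM were tested in R 4.3.3 with limma 3.58.1 (a single fit of all 3 groups, eBayes with a trend) and adjusted by Benjamini-Hochberg. The p-values measure only the spread between these libraries, which may be technical. The procedure was tested on simulated data with 200 changed genes. It called 72% of those changed by 0.6 on the log2 scale and 86.5% of those changed by 1. Smaller changes were not simulated, so how often they would be called was not assessed. The members, the gene lists and the tests were chosen with earlier results of these data known. Full values were given for Herpud1, Hspa5, the sensors, Xbp1 and members past the adjusted threshold. Other ER genes were named where they passed the adjusted threshold. The other members and ER genes described with values were chosen after these were seen. Promoter windows are from RefSeq (GRCm38.p6), and gene models and transcript lengths from GENCODE M21. Overlaps with exons of other genes were named for some members only. Alternatives were pseudocounts, filters on low values, scalings between libraries, a loess correction by GC and length of the transcript (span 0.5), untrended eBayes, fits of the 6 libraries of a comparison alone, a replicate block, the cut-offs of the study applied to the p of limma, and leaving out each library. Python 3.11.15, pandas 2.3.3 and matplotlib 3.10.9 prepared tables and plots. Protein sequences were not analysed here.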

Additional observations from a re-analysis of the deposited data

Results flagged for a closer look

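Herpud1 and Syvn1 were noted because at 100 µg/ml all 3 libraries lay below the control mean while at 10 µg/ml all 3 lay above it. The difference between the log2 differences from control at the doses was -0.86 for Herpud1 and -0.18 for Syvn1. This pattern was found in 2 of 36 members and in 343 of 11161 genes (3.07%). The opposite direction was not tested as such, both doses share the control libraries, and for both genes the libraries at 10 µg/ml overlapped with control.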

How the results depend on the processing

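Over the 19 alternative fits the log2 difference of Herpud1, whose change was known when the set was drawn up, lay between -0.82 and -0.75 at 100 µg/ml against control and between -0.88 and -0.81 against 10 µg/ml. The number of members called at 100 µg/ml against control was 6 with the loess correction by GC and length (Atf6 at -0.17 with an adjusted p of 0.0341 in limma, Dnajc3, Herpud1, Hspa13, Manf and Pdia6, all lower), where 657 of all genes were called, and between 1 and 3 with single libraries left out, the 3 without replicate 1 at 100 µg/ml, where 539 of all genes were called. The number of members called in the other comparisons did not change in any alternative. The number of other ER genes called at 100 µg/ml against control was 6 with the loess correction, 0 with only the 6 libraries compared, 1 under the cut-offs of the study applied to the p of limma (Trib3), and between 0 and 7 with single libraries left out; against 10 µg/ml it was 2 with quantile normalization (Serp1 and Tmbim6), 2 with the loess correction, 1 under those cut-offs (Trib3), and between 0 and 2 with single libraries left out. Same-numbered libraries correlated in their deviations from the group means between -0.088 and 0.152, so the numbers were not taken as pairs. With the replicate block, 1 member and 1 other ER gene (Ufd1l) were called at 100 µg/ml against control, and 106 of all genes. With single libraries left out, the median over the members at 100 µg/ml against control was between -0.08 and -0.04 and that over the degradation genes between -0.04 and 0.00. At 10 µg/ml against control the median over the members became 0.02 with quantile normalization. At 100 µg/ml against control that scaling moved the median over the chaperones from -0.09 to -0.04 and Hspa5 from -0.11 to -0.05. Without replicate 1 at 100 µg/ml the sign turned for 9 of the 36 members against control and for 6 against 10 µg/ml, the widest being Sel1l (from -0.10 to 0.09 and from -0.11 to 0.07). The following signs also turned among Herpud1, Hspa5, the sensors and Xbp1, the genes followed through every alternative. At 100 µg/ml against control, Xbp1 lay between -0.07 (without replicate 1 at 100 µg/ml) and 0.07 with single libraries left out, and between -0.15 and 0.02 (without replicate 3 at 10 µg/ml) against 10 µg/ml. At 10 µg/ml against control, Hspa5 was 0.04 with quantile normalization, Ern1 lay between -0.04 and 0.05, and Eif2ak3 between -0.03 and 0.02 with single libraries left out. The causes were not tested. Having 3 libraries a group limits the precision of small differences.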

Other observations

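Outside the set, 10 tested genes had an ERSE or ERSE-II in a RefSeq window. None of them passed the adjusted threshold in limma at 100 µg/ml against control. At an unadjusted p under 0.05 there were 3, beside 19.4% of all genes. The median log2 difference of the 10 was -0.02, and 6 of them were below 0 (50.4% of all genes). Their values ran from -0.21 for Hnrnpa3, which encodes an RNA-binding protein, to 0.26 for Lrif1. Both were named after their values were seen.

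Trib3, a pseudokinase gene induced through Atf4 and Ddit3, had 6.58, 6.38 and 6.08 FPKM in control, 7.28, 5.07 and 5.87 FPKM at 10 µg/ml, and 4.87, 3.71 and 2.72 FPKM at 100 µg/ml. The libraries at 100 µg/ml were below the other 6, with a log2 difference of -0.65 from control (95% interval -1.03 to -0.27, adjusted p = 0.0863 in limma). Without replicate 1 at 100 µg/ml it was -0.81 with an adjusted p of 0.0294 in limma. Tmbim6, an ER membrane protein that dampens Ern1, had 117, 121 and 122 FPKM in control and 107, 91.3 and 92.6 FPKM at 100 µg/ml, with a log2 difference of -0.31 (adjusted p = 0.0662 in limma). It was -0.30 with quantile normalization (adjusted p = 0.0351 in limma) and -0.38 without replicate 1 at 100 µg/ml (adjusted p = 0.0123 in limma). Both genes were chosen after their values were seen.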
